A study of Mus musculus with 15 samples.

Results

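The 9 genes described here, Socs1, Socs2, Socs3, Socs5, Cish, Stat3, Stat5a, Pim1 and Bcl3, belong to the feedback arm of cytokine signalling through Janus kinases (JAK) and STAT transcription factors, or are known targets of STAT3. They were chosen by name from among the genes of this circuit, each with a probe for a RefSeq transcript, and are 9 of the 23462 genes named on the array. Transcripts of Mouse Embryonic Fibroblasts (MEFs, here 3T3, an established Balb/c line, so all arrays stem from 1 line) were measured on 15 one-color microarrays, 3 in each of 5 groups. Beside untreated controls, the MEFs received TNFα at 10 ng/ml, TGFß1 at 5 ng/ml, IL-1β at 1 ng/ml, or 20 ng/ml of IL-6 together with 25 ng/ml of its soluble receptor sIL-6Rα. Exposure was 24 h for controls, TNFα and TGFß1 by the study's methods, and the labels give 24 or 72 h without saying which holds for the IL-1β and IL-6 arrays. Arrays are called by the number that opens their label. Controls were arrays 1, 6 and 11, TNFα 4, 9 and 14, TGFß1 2, 7 and 12, IL-1β 5, 10 and 15, and IL-6 3, 8 and 13.

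Cytokine receptors such as gp130 (Il6st), the signalling chain of the IL-6 receptor, activate JAK kinases, which phosphorylate STAT proteins. STAT3 is the main STAT downstream of gp130, and it switches on its own inhibitor SOCS3, which binds gp130 and JAKs and so closes a negative feedback loop. The soluble IL-6 receptor lets IL-6 act through gp130 on cells that carry little IL-6 receptor of their own. TNFα and IL-1β signal mainly through NF-κB, and TGFß1 mainly through SMAD proteins.

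In these MEFs, Socs3 was 5.26-fold higher with IL-6 than in controls, and no other group differed from control in Socs3 by the test. Bcl3 was higher with TNFα, IL-1β and IL-6 and lower with TGFß1. Stat3 was lower with TNFα and with TGFß1, Socs1 was higher with TNFα and Cish was lower with TGFß1. Socs2, Socs5 and Pim1 passed the test in no comparison, and the 2 probes of Stat5a went different ways.

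Levels are log2 signals relative to the array's own 75th percentile, so a level of 0 is the 75th percentile of that array. They compare groups for 1 probe and never 1 gene with another, since probes differ in brightness for reasons other than the amount of RNA. A comparison was called when its q-value (limma, Benjamini-Hochberg over the 29333 probes tested) was under 0.05 and the absolute fold-change at least 1.5. All 12 probes of the 9 genes were well above background on all 15 arrays and were tested. The array had 1 probe for each of 6 genes, and for Socs2, Stat3 and Stat5a the brighter of both probes stands for the gene unless said otherwise.

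The arrays lay on 2 slides. Slide 1 held controls 1 and 11, TNFα 14, TGFß1 7, IL-1β 5 and 10, and IL-6 3 and 8, and slide 2 held the others. Every group spans both slides, so called values of the 9 genes against control and between cytokines are given with the slide as a block and within each slide. The 8 fibroblast markers examined (collagens, PDGF receptors, Thy1, vimentin and fibronectin) were above background on all arrays. Of 7 macrophage and leukocyte markers, Ptprc, Adgre1 and Lyz2 were below background on every array, while Csf1r, Cd68, Cd14 and Itgam were above it on all 15. The summed linear signal of the fibroblast markers, in units of each array's 75th percentile, was 532 to 605 with TNFα, below the 749 to 902 of controls. That of 4 epithelial markers was 0.144 to 0.385 with TGFß1 and 0.0419 to 0.124 in controls. Krt18 was above background on 10 arrays, Krt8 on 4, Epcam on 1 and Cdh1 on 0, and 2 of the 4 were so on all TGFß1 arrays. The part of either shift in the results below was not tested. Of 4 endothelial markers, Pecam1 was above background on all 15 arrays and Cdh5, Kdr and Tek on none.

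For 4 genes, the sequence around the transcription start site is shown because it holds a match to a motif of a factor downstream of these cytokines, with the matched letters in capitals. Sequences are from RefSeq (GRCm38.p6), which held a window from 250 bases before to 50 after the start for 7 of the 9 genes. Motifs were searched on both strands of all 32851 such windows. The STAT motif TTCNNNGAA was in 8.30% of windows, the NF-κB consensus in 8.46% and the IRF motif GAAANNGAAA, bound by interferon regulatory factors, in 3.44%. A match describes the letters, and whether a factor bound there was not measured. Counting the start site as 0, Socs3 had 1 STAT match at -154 to -146, within the 250 bases upstream (chr11:117969367-117969616, minus strand):
Socs3: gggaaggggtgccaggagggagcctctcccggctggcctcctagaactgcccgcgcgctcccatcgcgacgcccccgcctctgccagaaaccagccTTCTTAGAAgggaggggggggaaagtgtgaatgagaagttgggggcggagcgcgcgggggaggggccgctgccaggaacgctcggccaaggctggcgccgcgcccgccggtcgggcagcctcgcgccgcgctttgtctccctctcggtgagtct

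Cish had 2 STAT matches at 0 to 8 and 11 to 19 (chr9:107296654-107296683, plus strand), Bcl3 had 1 NF-κB match at 2 to 11 (chr7:19822734-19822763, minus strand), and Socs1 had 2 overlapping IRF matches between -83 and -68 (chr16:10785587-10785646, minus strand):
Cish: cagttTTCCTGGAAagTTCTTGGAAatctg
Bcl3: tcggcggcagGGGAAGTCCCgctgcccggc
Socs1: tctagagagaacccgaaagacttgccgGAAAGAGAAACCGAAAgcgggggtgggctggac

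The windows of Stat3 and Pim1 held none of the 3 motifs, and 1 of the windows of Stat5a held an NF-κB match. These letters are not in those windows, which says nothing of sites elsewhere.

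Among the inhibitors, Socs3, the feedback inhibitor of gp130 and STAT3, showed the largest difference of any of the 9 genes from control. Its level was 2.29, 1.96 and 2.47 on control arrays 1, 6 and 11. With IL-6 it was 4.35, 5.07 and 4.48 on arrays 3, 8 and 13. All IL-6 arrays lay above the other 12, with a gap to the next, an IL-1β array. The log2 fold-change of IL-6 against control was 2.39 (SE 0.20, 95% interval 1.96 to 2.83, q = 0.00115). It was 2.39 with the slide as a block, 2.33 within slide 1 and 2.52 within slide 2. In RNA from whole cultures, more transcript per cell and more cells with the transcript cannot be told apart.

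The other cytokines left Socs3 nearer to control. TNFα gave 1.90, 1.81 and 2.28 and TGFß1 2.02, 2.00 and 2.09, both overlapping controls. IL-1β gave 2.82, 2.66 and 3.08, above all 3 controls, with a log2 fold-change of 0.61 (95% interval 0.18 to 1.05) that did not pass the correction (q = 0.718). Between cytokines, the Socs3 level was higher with IL-1β than with TNFα by 0.86 (SE 0.20, q = 0.0263) and than with TGFß1 by 0.82 (SE 0.20, q = 0.0118), both on the log2 scale. With the slide as a block these were 0.81 and 0.77, within slide 1 0.46 and 0.74, and within slide 2 1.23 and 1.03. IL-6 exceeded IL-1β by 1.78 (SE 0.20, q = 0.0018), TNFα by 2.64 (q = 5.84e-06) and TGFß1 by 2.60 (q = 4.21e-06). Blocked by slide these were 1.78, 2.59 and 2.55, within slide 1 1.97, 2.43 and 2.71, and within slide 2 1.40, 2.63 and 2.43. In the order IL-6, IL-1β, control, TGFß1, TNFα, only the first step between neighbours passed the test. The IL-1β against TNFα call was lost in 5 of 6 fits that left out an array of either group, all but that without TNFα 14.

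Socs1, which inhibits JAKs directly and is known as a brake on interferon signalling, was higher with TNFα. Controls 1, 6 and 11 had 2.04, 1.17 and 1.97, and TNFα arrays 4, 9 and 14 had 2.51, 2.45 and 2.86. All TNFα arrays lay above all 12 others, and control 6 lay below the rest. The log2 fold-change was 0.88 (SE 0.20, 95% interval 0.44 to 1.31, q = 0.0129), 0.94 with the slide as a block, 0.85 within slide 1 and 1.31 within slide 2. Without TNFα 14 it was 0.75 (q = 0.053). TGFß1 (1.98 to 2.05), IL-1β (1.83 to 2.10) and IL-6 (1.92 to 2.17) overlapped controls. The steps from TNFα to these 3 groups, 0.53 to 0.61, were not called, with q-values of 0.0666 to 0.125. With the run of label numbers and the slide as blocks all 3 were called, at 0.60 to 0.68 (q = 0.00158 to 0.00206), and with the slide alone those against TGFß1 (q = 0.0388) and IL-1β (q = 0.0496).

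Cish, an SH2 protein induced by STAT5 that restrains receptors of the growth hormone and IL-2 type, was lower with TGFß1. Its level was -1.52, -0.25 and -1.002 on controls 1, 6 and 11 and -2.04, -1.83 and -2.11 on TGFß1 arrays 2, 7 and 12. The groups did not overlap, but controls spread over more than 1 log2 unit. The log2 fold-change was -1.07 (SE 0.33, 95% interval -1.78 to -0.35, q = 0.0327), -1.14 with the slide as a block, -0.56 within slide 1 and -1.82 within slide 2. The call was lost in 5 of 6 fits without an array of these groups, and without control 6 the value was -0.73 (q = 0.124). IL-1β arrays had -1.22, -0.31 and -0.65, which exceeded TGFß1 by 1.26 (SE 0.33, q = 0.0157), 1.34 with the slide as a block, 1.06 within slide 1 and 1.42 within slide 2. That call was lost without IL-1β 10 or TGFß1 12. TNFα (-1.41, -1.22 and -1.67) gave a difference of -0.51 that was not called (q = 0.364), and was called at -0.60 when the run of label numbers and the slide were both blocks (q = 0.02). IL-6 arrays, at -1.68, -0.67 and -1.28, overlapped controls. The same blocks turned 2 more differences between cytokines into calls, IL-1β over TNFα (0.80, q = 0.00754) and IL-6 over TGFß1 (0.87, q = 0.00227).

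Socs2, a regulator of growth hormone signalling, ranged over the 15 arrays from -1.64 on control 1 to 0.01 on control 6, the full range within the control group. The 4 differences from control lay between -0.34 and 0.15 with a standard error of 0.40, and the dimmer probe gave -0.58 to 0.18. With TGFß1 the brighter probe gave 0.35 within slide 1 and -1.36 within slide 2, where control 6 was the only control. Socs5, linked to EGF receptor and IL-4 signalling, ranged from 3.14 on control 6 to 4.06 on IL-6 array 3. It differed from control by at most 0.24, with 95% intervals reaching from -0.46 to 0.70, so 3 arrays a group did not exclude changes within those limits. Over the 15 arrays, Socs2 moved most like Cish among the 9 genes (r = 0.82). Both had their highest level on control 6 and a low one on control 1, so the likeness includes differences within a group. Socs2 was higher with IL-1β than with TGFß1 by 0.50, not called (q = 0.411), and by 0.64 with the run of label numbers and the slide as blocks (q = 0.0129).

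**Figure D1:**
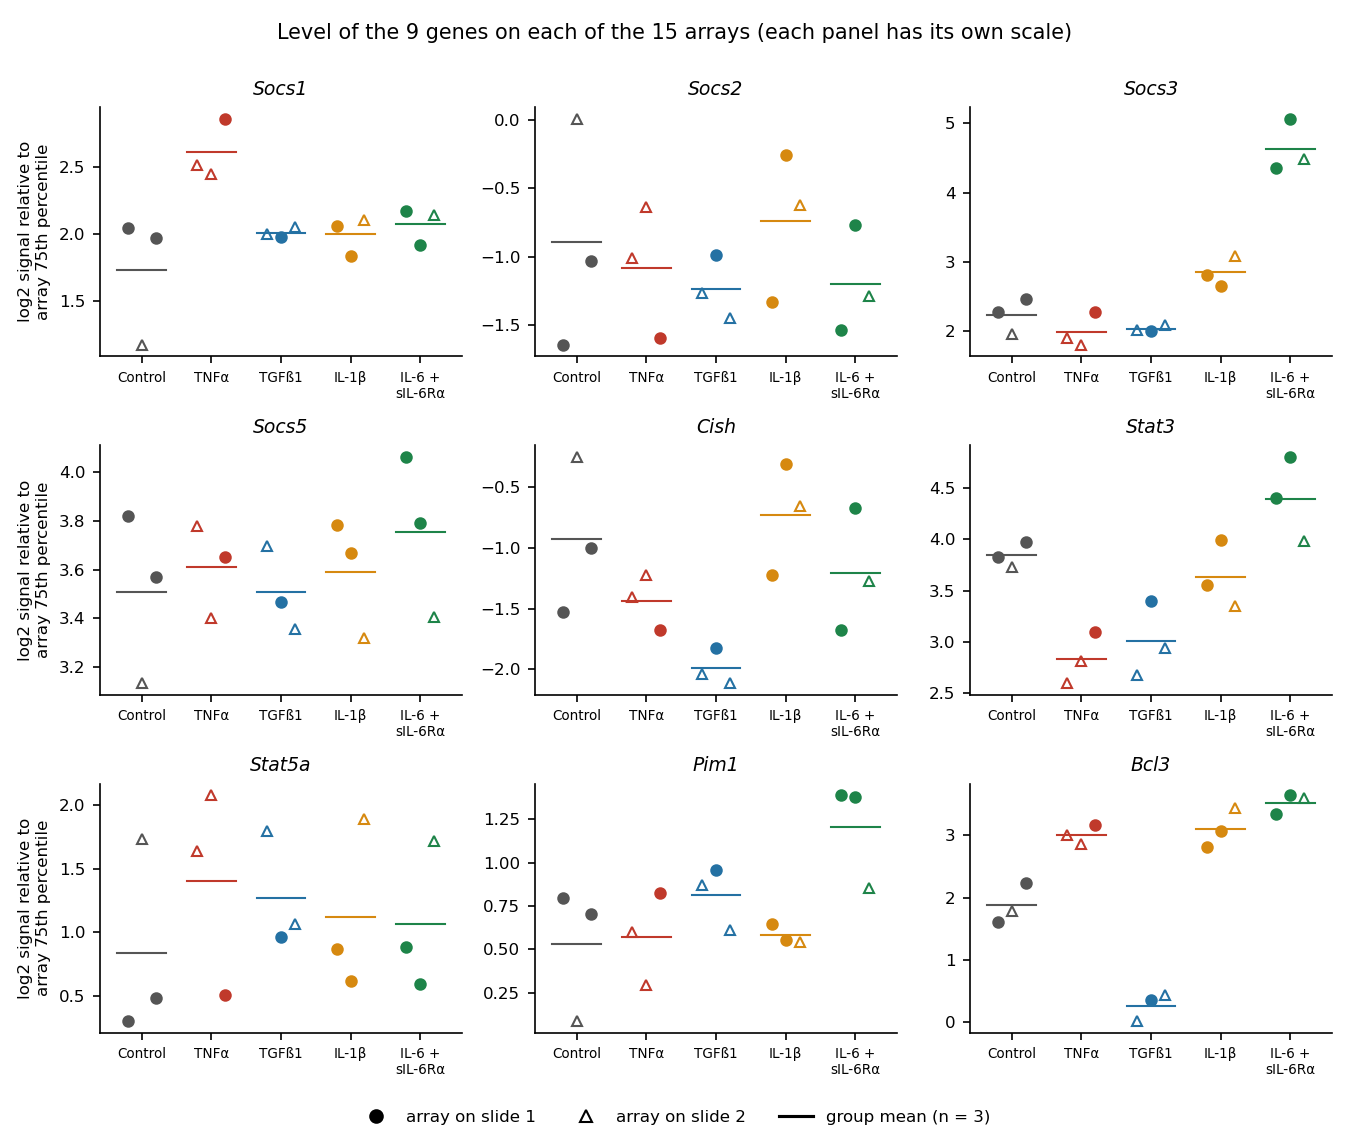
Level of each gene (log2 signal relative to the 75th percentile of the array, y axis, own scale in each panel) in the 5 groups of 3 arrays. Points are arrays, with filled circles for slide 1 and open triangles for slide 2, and lines are group means. The 3 IL-6 arrays of Socs3 sit between 4.35 and 5.07, above the other 12, and the TGFß1 arrays of Bcl3 sit between 0.01 and 0.42, below the other 12.

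Of the STATs, Stat3, the transcription factor that relays gp130 signals and itself a known STAT3 target, was lower with TNFα and with TGFß1. Controls 1, 6 and 11 had 3.83, 3.73 and 3.98. TNFα arrays 4, 9 and 14 had 2.60, 2.82 and 3.09, and TGFß1 arrays 2, 7 and 12 had 2.68, 3.40 and 2.94. Both groups lay wholly below controls. The log2 fold-change was -1.01 with TNFα (SE 0.24, q = 0.0159) and -0.84 with TGFß1 (SE 0.24, q = 0.0237), and these groups were not distinguished from each other (difference -0.17, 95% interval -0.69 to 0.35). With the slide as a block they were -0.86 and -0.69, within slide 1 -0.81 and -0.50, and within slide 2 -1.02 and -0.92. In all 5 groups the mean of the slide 2 arrays was below that of the slide 1 arrays, by 0.17 to 0.62. The TNFα call was lost without control 11 (q = 0.0591) or TNFα 4 (q = 0.0761), and the TGFß1 call without control 1, control 11, TGFß1 2 or TGFß1 12 (q = 0.0502 to 0.102).

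With IL-6, Stat3 was at 4.40, 4.81 and 3.98 on arrays 3, 8 and 13. All 3 stood above controls, array 13 only just, and the log2 fold-change of 0.55 (95% interval 0.03 to 1.08) did not pass the correction (q = 1). With the run of label numbers and the slide as blocks q was 0.012, but the fold-change of 1.47 stayed under the 1.5 that a call needs. IL-1β arrays, at 3.55, 3.99 and 3.35, overlapped controls. Against the groups in which it was lower, Stat3 with IL-6 was higher by 1.56 over TNFα (SE 0.24, q = 0.00121) and by 1.39 over TGFß1 (SE 0.24, q = 0.00156). Within slides 1 and 2 these differences were 1.51 and 1.27 over TNFα, and 1.20 and 1.17 over TGFß1, and with the slide as a block 1.41 and 1.24. Stat3 exceeded IL-1β by 0.76 with IL-6, which was not called in the fit of groups alone (q = 0.43) and was called with the slide as a block (q = 0.0443). IL-1β over TNFα (0.80, q = 0.0774) was likewise called at 0.65 with that block (q = 0.0243). When the run was blocked together with the slide, the 2 differences were 0.76 (q = 0.00107) and 0.65 (q = 0.0004). In the order IL-6, control, IL-1β, TGFß1, TNFα no step between neighbours passed the test.

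The other probe of Stat3 (A_55_P1991219), designed to another of the gene's transcripts, gave the same calls against control. Its log2 fold-change was -0.997 with TNFα (q = 0.00512), -0.81 with TGFß1 (q = 0.00947), -0.28 with IL-1β and 0.41 with IL-6. The first 2 were called and the last 2 were not. With the slide as a block the called values were -0.91 and -0.72, within slide 1 -0.98 and -0.52, and within slide 2 -1.04 and -0.997. IL-6 exceeded TNFα by 1.41 on this probe (q = 0.000506) and TGFß1 by 1.23 (q = 0.00081), by 1.32 and 1.13 with the slide as a block, by 1.59 and 1.13 within slide 1 and by 1.07 and 1.02 within slide 2. With the slide as a block, IL-6 over IL-1β was not called on this probe (0.70, q = 0.0712), unlike on the brighter one. IL-1β over TNFα was called on it with that block (0.62, q = 0.03). Over the 15 arrays both Stat3 probes had r = 0.96.

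Stat5a, which relays growth hormone, prolactin and IL-2 family signals and is an inducer of Cish, had probes that disagreed (r = -0.03 over the 15 arrays). The brighter probe (A_66_P115018) ranged from 0.30 on control 1 to 2.08 on TNFα 9, and its 4 differences from control, 0.23 to 0.57 with a standard error of 0.50, were not called. On this probe the slide 2 arrays had the higher mean in all 5 groups, by 0.47 to 1.36, and with the slide as a block its difference with TGFß1 was 0.08 in place of 0.44. The dimmer probe (A_55_P1990495) was lower with TGFß1, at -3.80, -3.65 and -3.30 on arrays 2, 7 and 12 against -2.55, -1.55 and -2.13 on controls 1, 6 and 11. These groups did not overlap, and the log2 fold-change was -1.51 (SE 0.29, q = 0.00254), -1.60 with the slide as a block, -1.31 within slide 1 and -2.002 within slide 2. On it the level was also higher than with TGFß1 by 1.14 with TNFα (q = 0.0164), by 1.60 with IL-1β (q = 0.0019) and by 2.08 with IL-6 (q = 0.00031). Blocked by slide these were 1.14, 1.69 and 2.17, within slide 1 1.30, 1.53 and 2.09, and within slide 2 1.06, 1.84 and 2.16. IL-6 over TNFα on this probe (0.94, q = 0.0552) was called at 1.03 with the slide as a block (q = 0.0259). A direction for Stat5a with TGFß1 thus depends on the probe, and which probe follows the transcript was not tested.

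**Figure D2:**
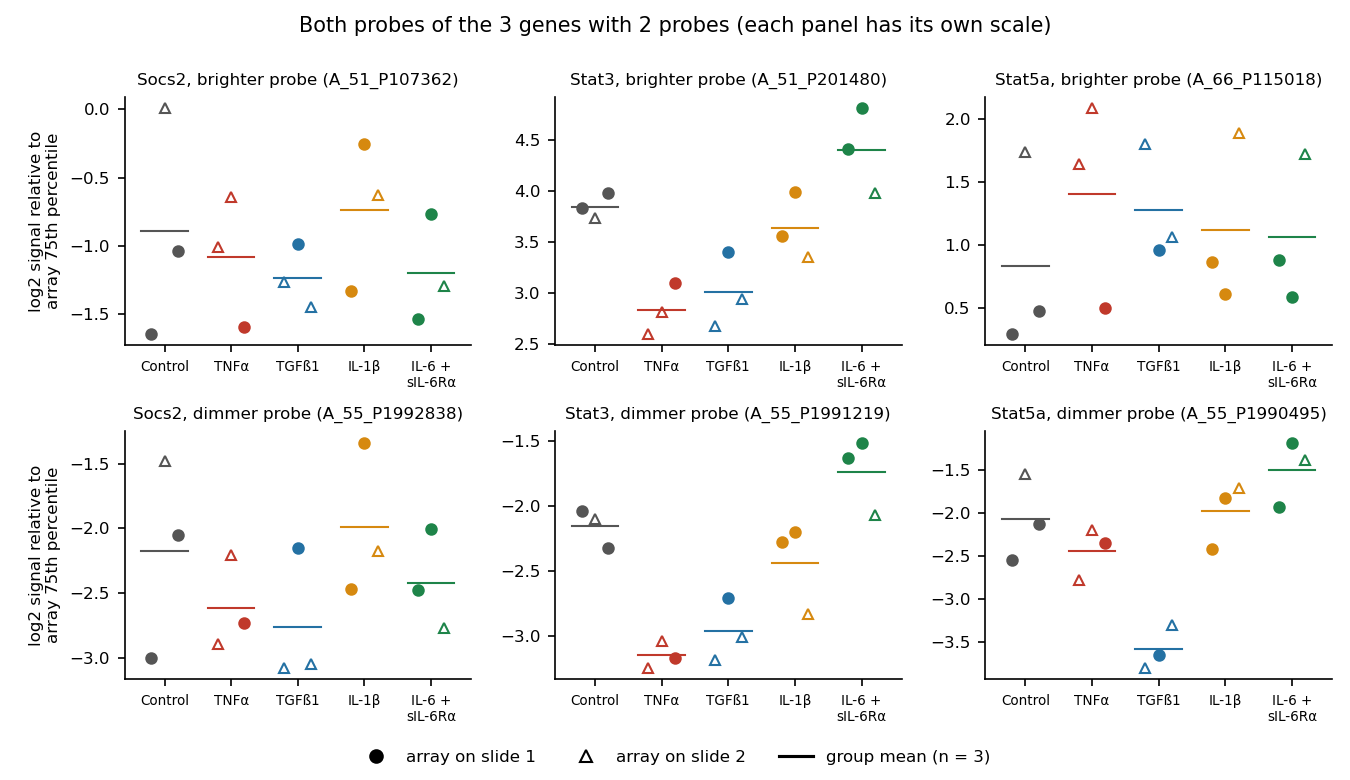
Levels from the brighter (top) and dimmer (bottom) probe of Socs2, Stat3 and Stat5a (log2 signal relative to the array's 75th percentile, y axis, own scale in each panel) by group. Circles are arrays of slide 1, triangles arrays of slide 2 and lines group means. Both Stat3 probes are lowest with TNFα and TGFß1, while for Stat5a the TGFß1 arrays are the lowest on the dimmer probe alone.

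Of the targets, Bcl3, an atypical IκB protein that works with NF-κB p50 and p52 in the nucleus and is known as a target of both NF-κB and STAT3, was called against control in all 4 treatments. Controls 1, 6 and 11 had 1.61, 1.78 and 2.23. The level was 3.00, 2.87 and 3.16 with TNFα (arrays 4, 9 and 14), 2.82, 3.07 and 3.44 with IL-1β (5, 10 and 15) and 3.34, 3.65 and 3.60 with IL-6 (3, 8 and 13). It was 0.01, 0.35 and 0.42 with TGFß1 (2, 7 and 12). Every array of the first 3 treatments lay above, and every TGFß1 array below, all controls.

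The log2 fold-changes of Bcl3 were 1.14 with TNFα (q = 0.00245), 1.23 with IL-1β (q = 0.0212), 1.65 with IL-6 (q = 0.00771) and -1.61 with TGFß1 (q = 0.000137), each with a standard error of 0.20. With the slide as a block they were 1.13, 1.23, 1.65 and -1.62 in the same order. Within slide 1 they were 1.24, 1.02, 1.57 and -1.57, and within slide 2 1.15, 1.66, 1.81 and -1.57. The TNFα and TGFß1 calls held whichever array of their groups was left out. The IL-1β call was lost without control 1, control 6, IL-1β 10 or IL-1β 15 (q = 0.0796 to 0.099), and the IL-6 call without control 1, control 6 or IL-6 8 (q = 0.0532 to 0.0572). Against TGFß1, Bcl3 was higher by 2.75 with TNFα (q = 1.54e-06), by 2.85 with IL-1β (q = 1.89e-06) and by 3.27 with IL-6 (q = 7.91e-07). Within slides 1 and 2 these were 2.81 and 2.72, 2.59 and 3.23, and 3.14 and 3.38, and with the slide as a block 2.75, 2.85 and 3.27. In the order IL-6, IL-1β, TNFα, control, TGFß1, the first 3 groups were not separated from their neighbours (steps of 0.42 and 0.10), and the steps to control and from control to TGFß1 were called.

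Pim1, a serine/threonine kinase that promotes survival and a known STAT3 and STAT5 target, had 0.80, 0.08 and 0.71 on controls 1, 6 and 11 and 1.39, 1.38 and 0.85 on IL-6 arrays 3, 8 and 13. The IL-6 arrays lay above controls, and the log2 fold-change was 0.68 (SE 0.21, 95% interval 0.22 to 1.13). It did not pass the correction (q = 0.758), and did when the run of label numbers and the slide were both blocks (q = 0.024). The step from IL-1β to IL-6 (0.62, q = 0.526) was called with those blocks as well (q = 0.0157). TNFα, TGFß1 and IL-1β differed from control by 0.04, 0.28 and 0.05, with intervals that included 0.

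**Figure D3:**
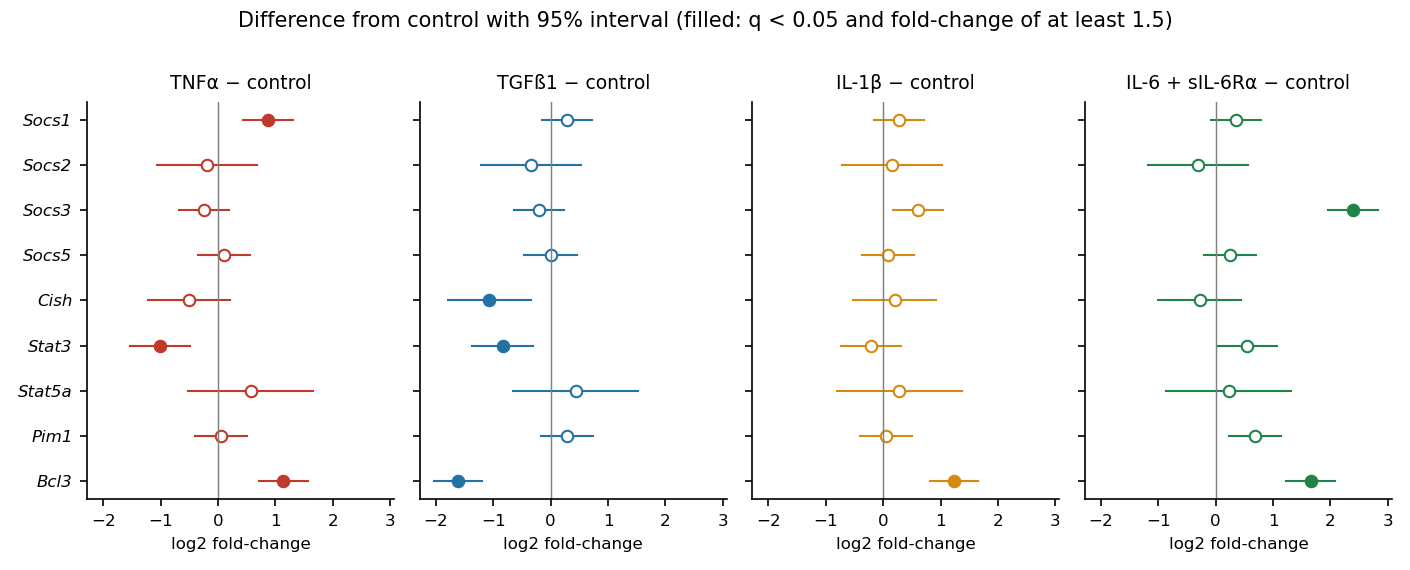
Log2 fold-change against control (x axis) of the 9 genes in the 4 treatments, with 95% intervals from the limma fit of 15 arrays (3 a group). Filled points passed q < 0.05 with a fold-change of at least 1.5. Socs3 stands out with IL-6 at 2.39, and Bcl3 is filled in all 4 panels.

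By comparison, 3 of the 9 genes were called with TNFα against control (2 higher, 1 lower), where 10.2% of all probes tested were called. With TGFß1 it was 3 of 9, all lower, against 18.0% of probes (2129 higher and 3150 lower). With IL-1β it was 1 of 9 against 0.252%, and with IL-6 2 of 9 against 0.0682%, which is 20 of the 29333 probes, Socs3 and Bcl3 among them. Of the comparisons between cytokines, TNFα against TGFß1 called 1 of the 9 (11.9% of probes), IL-1β against TNFα 1 (4.87%) and IL-1β against TGFß1 3 (17.0%). IL-6 against TNFα called 2 (8.70%), IL-6 against TGFß1 3 (16.4%) and IL-6 against IL-1β 1 (0.416%). The median log2 fold-change of the 9 genes was 0.04 with TNFα, -0.20 with TGFß1, 0.20 with IL-1β and 0.35 with IL-6, where that of all probes tested was 0.04, 0.06, 0.01 and 0.00. The 4 comparisons with control share the same 3 control arrays.

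Of 20 further JAK-STAT components, the receptors, kinases and STATs upstream of these genes, 19 were tested (Stat4 was not above background). With TGFß1, 8 of the 19 were lower and none higher, where 18.0% of all probes tested were called, 2129 higher and 3150 lower. At an unadjusted p under 0.05, 12 of the 19 were lower and 0 higher, where 10773 of the 29333 probes passed in either direction. The median log2 fold-change over these 19 was -0.55. Il6ra, the IL-6 binding receptor chain, was lower by 2.53 on the log2 scale (level -0.51 against 2.02, q = 0.000215). Stat2, which acts in type I interferon responses, fell by 1.51 (q = 0.00168), and Il11ra1, the IL-11 receptor chain that pairs with gp130, fell by 1.48 (q = 0.00147). With TNFα 1 was higher and 2 were lower, where 10.2% of all probes tested were called. Ifngr2, a chain of the interferon γ receptor, was higher by 0.84 (q = 0.00186), Il6ra fell by 1.24 (q = 0.0268), and Jak3, a kinase of the IL-2 receptor family, fell by 1.11 (q = 0.00619). None of the 19 was called by limma with IL-1β or with IL-6, where 0.252% and 0.0682% of all probes tested were called. With these 2 cytokines, 2 and 5 of the 19 had an unadjusted p under 0.05, where 1093 and 966 of all 29333 probes did. Differences were -0.33 to 0.49 and -0.32 to 1.56.

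Of 14 other negative regulators of the pathway, 13 were tested, of which 2 were called with TNFα and 3 with TGFß1 (10.2% and 18.0% of all probes tested were called). Usp18, an inhibitor of interferon receptor signalling, was higher with TNFα by 1.54 (q = 0.0116) and fell by 1.34 with TGFß1 (q = 0.0142). Pias3, an inhibitor of STAT3, fell by 0.98 with TNFα (q = 0.00446). With TGFß1, Ptpn6, a phosphatase that acts on JAKs, fell by 1.31 (q = 0.00406), while Socs6, another SOCS family member, was higher by 0.72 (q = 0.0068). By limma, 0 genes of this list were called with IL-1β or IL-6, with differences of -0.31 to 0.35 and -0.27 to 0.32. At an unadjusted p under 0.05 there were 0 and 1, where 1093 and 966 of all 29333 probes passed.

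Of 26 other genes known as STAT3 targets, 24 were tested. At an unadjusted p under 0.05, 14 were higher and 2 lower with IL-6, where 966 of the 29333 probes tested passed in either direction. By the call rule, 2 were higher and none lower with IL-6, where 0.0682% of all probes tested were called, all 20 higher. Hp (haptoglobin, an acute phase protein) was higher by 3.66 (level 3.06 against -0.60, q = 0.0263) and Cebpd, a transcription factor of the acute phase response, by 1.71 (q = 0.00974). With IL-1β, 7 were higher and 0 lower unadjusted, where 1093 of the 29333 probes tested passed. By the call rule 5 were higher and none lower, where 0.252% of all probes were called (72 higher and 2 lower). Among them, Saa3, an acute phase protein, was higher by 7.43 (level 3.93 against -3.50, q = 0.00024), Lcn2 (lipocalin 2), which binds bacterial siderophores, by 6.52 (q = 0.00915), Hp by 3.64 (q = 0.0115) and the adhesion molecule Icam1 by 1.92 (q = 0.00454). The log2 fold-change of Saa3 with IL-6 against IL-1β was -5.99 (q = 0.00107), the 1 gene of this list called between these cytokines. At an unadjusted p under 0.05, 7 genes of the list were higher and 3 lower with IL-6 than with IL-1β. In that comparison 1411 of the 29333 probes tested had such a p.

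With TNFα, 6 of these 24 targets were higher and 3 lower, where 10.2% of all probes tested were called. Saa3 was higher by 7.83 (q = 1.04e-05), Icam1 by 5.92 (q = 3.92e-08) and Irf1, a factor induced by interferons and NF-κB, by 1.51 (q = 3.17e-05), while Cebpd fell by 1.44 (q = 0.000792). With TGFß1, 5 were higher and 7 lower, where 18.0% of all probes were called. Vegfa, the vascular growth factor, was higher by 4.09 (q = 2.05e-05), Hp by 2.21 (q = 0.00947) and Myc by 1.52 (q = 0.0187). Icam1 was not well above background on any TGFß1 array and was at least 3.12-fold lower than in controls, taking the dimmest probe above background on each array as its bound (q = 0.000137). Many of the genes on this list are known targets of NF-κB or SMAD as well, so the list does not isolate STAT3. Its median log2 fold-change was 0.21 with TNFα, 0.06 with TGFß1, 0.16 with IL-1β and 0.44 with IL-6.

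**Figure D4:**
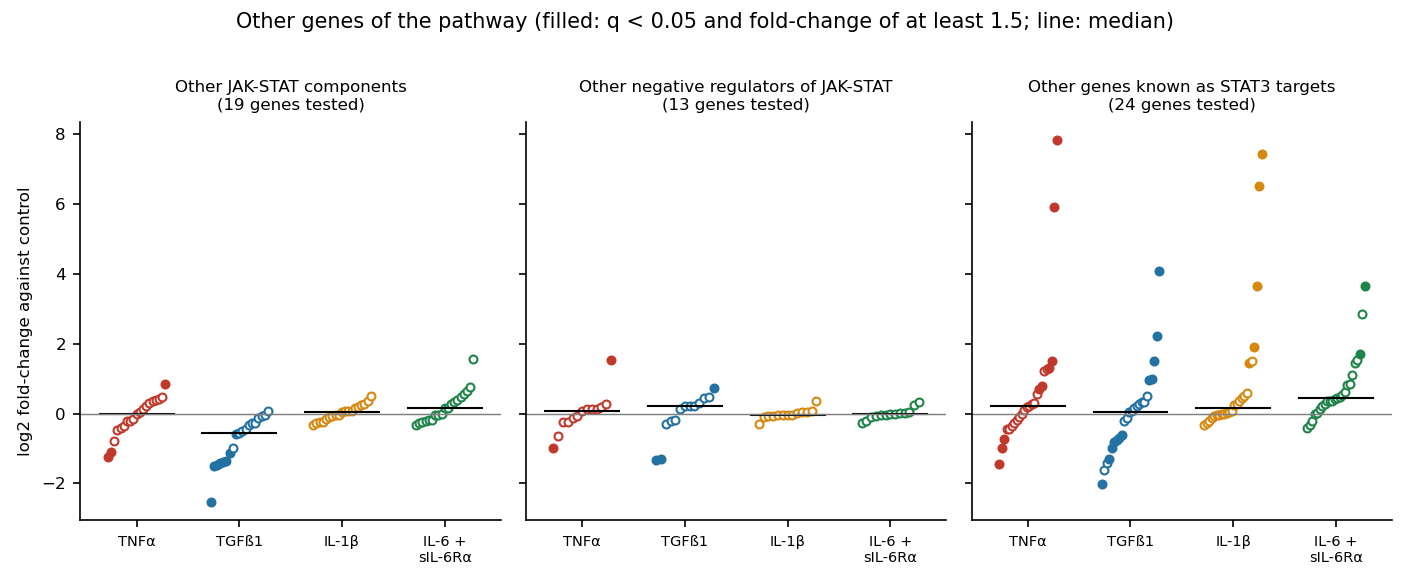
Log2 fold-change against control (y axis) of the further genes of the pathway in the 4 treatments, 1 point a gene, ordered by value within each treatment. Filled points passed q < 0.05 with a fold-change of at least 1.5, and black lines are medians. For the JAK-STAT components all 8 filled TGFß1 points lie below 0, and no point is filled with IL-1β or IL-6.

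Among 13478 other genes compared over the 15 arrays, the level of Socs3 ran most like that of Il2rb (r = 0.93), Mfsd13a (0.92) and Muc1 (0.91). Bcl3 ran most like Fosl2 (r = 0.95), Cebpb (0.94) and Ankrd55 (0.94). Stat3 ran most like Pros1 (r = 0.98), Loxl1 (0.97) and Rab4b (0.97), Socs1 like Erlin1 (0.96), Cldn12 (0.94) and Rpp38 (0.92), and Cish like Cyp2j9 (0.95), Pik3ip1 (0.95) and Tpp1 (0.94). For Stat5a, whose brighter probe followed the slide, they included Trim71 (0.96) and 6430584L05Rik (0.96). For Socs2 they were Gpha2 (0.89), 9330159M07Rik (0.88) and Lyz1 (0.88), for Socs5 Eps15l1 (0.87), Dusp6 (0.87) and H4c9 (0.84), and for Pim1 Zbtb38 (0.86), Trim46 (0.86) and Il4ra (0.86). The arrays share 5 groups and 2 slides, so these values are descriptions. Among the 9 genes themselves, Socs3 was most like Stat3 (r = 0.78) and Pim1 (r = 0.69). The lowest value was that of Socs1 with Socs2 (r = -0.58), near that of Socs2 with Pim1 (r = -0.54). Control 6 had the lowest Socs1 and the highest Socs2 level, so the former value includes differences within a group.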

How the data were processed

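RNA of 15 cultures was labelled with Cyanine 3 and hybridised to Agilent whole mouse arrays. The deposited scanner files, made by the authors with Feature Extraction 10.7.3.1, give the intensity of each spot after background subtraction (processed signal). The deposited table of the series holds the same signals. Gene names are those of RefSeq, found through the transcript that the array files give for each probe. For 22838 of 56605 probes this gave no name. Log2 intensity minus the array's 75th percentile (a signal of 501 to 674) was computed from the deposited values after leaving out control and outlier spots and averaging spots of a probe. The number of arrays limits the precision. No spot was saturated and 48.3% to 54.8% of probes were well above background.

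Groups came from the labels. Probes that stood well above background throughout 1 group or more were fitted with limma 3.58.1 (R 4.3.3), 5 group means, two-sided, with Benjamini-Hochberg q-values over all probes of a comparison. The fit was tested on simulated data drawn independently for each array. These held no effect of slide or run of label numbers, so the test does not cover such effects. The p-values rest on 1 spread per probe, pooled over the 3 arrays of each of the 5 groups and drawn by limma toward that of other probes. The study states 3 independent experiments for controls, TNFα and TGFß1, and this is not stated for the others. The 9 genes and the lists were chosen with earlier results of these data known. All 9 genes were described with every probe, list genes were named up to 4 a list and comparison with control, by size among those called, and 3 genes were named per gene by Pearson's r, except that 2 genes these rules select are not reported here.

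Alternatives were background correction, scaling, the filter, spot flags, slide, run of label numbers, arrays in the fit, the call rule, the series table and leaving out arrays. Normexp used the median spot and background intensity with an offset of 50, since no mean spot signal was in the files. The label numbers form 3 runs of 5 (1 to 5, 6 to 10, 11 to 15), each with 1 array of every group. With the slide removed, deviations from group means correlated above 0.1 in 30 of 30 pairs of the same run (r = 0.11 to 0.67) and 2 of 60 pairs of different runs, and without removing the slide in 12 of 30 and 28 of 60. An alternative fit thus took the run, with the slide, as a block.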

Additional observations from a re-analysis of the deposited data

How the results depend on the processing

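Direction held for all 20 called differences of the 9 genes in every alternative run and with any array left out. Of the 10 comparisons, the number of the 9 genes called moved as follows. Within slide 1, 0 were called with TNFα, TGFß1, IL-1β and IL-6 against control, 0 in IL-1β against TNFα and IL-6 against IL-1β, and 1 in IL-1β against TGFß1 and IL-6 against TNFα. Within slide 2, 5 were called with TGFß1 against control, 2 in TNFα against TGFß1, 1 in IL-6 against TNFα, and 0 with IL-1β and IL-6 against control, in IL-1β against TNFα and in IL-6 against IL-1β. With fewer arrays these fits have few degrees of freedom. Using only the arrays of both groups compared gave 2 of 3 with TNFα against control (without Socs1, q = 0.103) and 2 of 3 with TGFß1 (without Cish, q = 0.0626), 0 with IL-1β and with IL-6 against control, 0 in IL-1β against TNFα and in IL-6 against IL-1β, and 2 in TNFα against TGFß1. Without a filter on dim probes, 1 was called with TGFß1 against control and 0 with IL-1β against control and in IL-1β against TNFα, and with a fold-change of 2, 2 with TNFα (without Socs1) and 2 with TGFß1 (without Stat3) against control and 0 in IL-1β against TNFα. The slide as a block gave 2 in TNFα against TGFß1, 3 in IL-1β against TNFα and 2 in IL-6 against IL-1β. The replicate block (run of label numbers) with the slide gave 2, 4 and 3 there, and without the slide 2 and 4 in the first pair. It lost no call of the fit of groups alone, and its added calls are given with each gene. Quantile normalization and the 75th percentile over detected probes gave 2 in TNFα against TGFß1. The cause of these moves was not tested.

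Leaving out 1 array gave 1 to 3 with TGFß1 against control (1 without control 11, TGFß1 2 or TGFß1 12), 0 to 1 with IL-1β against control (0 without control 1, control 6, IL-1β 10 or IL-1β 15) and 1 to 2 with IL-6 against control (1 without control 1, control 6 or IL-6 8). It gave 1 to 2 in TNFα against TGFß1 (2 without control 6) and 0 to 2 in IL-1β against TNFα (0 without any IL-1β array, TNFα 4 or TNFα 9, 2 without control 6). The dimmer probe of Stat5a gave log2 fold-changes of -1.51 for TGFß1 against control, 1.60 for IL-1β against TGFß1 and 2.08 for IL-6 against TGFß1, each against the sign of the brighter probe in the fit of groups alone (0.44, -0.15 and -0.21). With the slide as a block the brighter probe gave 0.08, 0.20 and 0.14, the last 2 in the direction of the dimmer probe, and none was called.

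Over all probes, the number called with IL-6 against control was 20, and 37 with the slide as a block, 67 with the run, 226 with both, 9 without the filter 0 with only the arrays of both groups, 4 to 6 without control 1, control 6 or IL-6 8, and 13 without TNFα 9. With IL-1β it was 74, and 323 with both blocks, 164 with the run, 16 with only both groups' arrays, and 37 to 48 without control 1, control 11 or any 1 IL-1β array. With TGFß1 it was 5279, and 3473 after normexp and 2684 at a fold-change of 2. With TNFα it was 2980, and 4503 with both blocks, 1589 at a fold-change of 2 and 1897 without TNFα 4. Within slides 1 and 2 the 4 counts were 0 and 2 (IL-6), 2 and 1 (IL-1β), 821 and 7012 (TGFß1), and 343 and 2135 (TNFα).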
